A study of Mus musculus with 9 samples.

Results

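The comparison of full-length CCAT with empty vector comprised 3 of the 9 two-colour Agilent arrays of the series, chosen by their titles and by the platform they share. CCAT is a fragment from the C-terminus of the voltage-gated channel CaV1.2, and the question was which genes change when this putative transcription factor is present. All arrays carried RNA of mouse Neuro2A cells, a neuroblastoma line from the ATCC collection. On these 3 arrays the Cy3 channel held cells given full-length CCAT (the last 503 amino acids of the channel, cloned in the PA1 plasmid), and the Cy5 channel held cells given the PA1 plasmid alone. Both populations were transfected with Lipofectamine 2000 and sorted for GFP 24 hours later, so plasmid, lipid and sorting were common to both channels. The other 6 arrays, of another platform, set full-length CCAT (FL) or a form with the last 280 amino acids that lacks the activation domain (DTA) against untransfected cells, with 3 arrays each. The PA1 control was added because, per the submitters' design text, the plasmid itself raised some genes. The construct was expressed from a transfected plasmid in a tumour cell line. The labels do not say that the 3 replicates came from separate cultures, so p-values measured only the spread between these samples, which may be technical.

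CaV1.2 is a voltage-gated calcium channel of neurons and muscle, and its C-terminus carries regulatory sites such as those that bind calmodulin. A C-terminal fragment, when free of the channel, can enter the nucleus, where it has been described as a regulator of transcription that responds to intracellular calcium. Connexins, the family of Gjb5, assemble into gap junctions, channels that join the cytoplasm of neighbouring cells.

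Values are the deposited log10 ratios converted to log2 and averaged over the features (spots) that share a gene symbol. A positive ratio most likely means a higher level with full-length CCAT. The sources used here do not give which channel was the numerator. The basis for this reading is the known description of Gjb5 as a gene raised by CCAT, together with the design text on genes raised by the plasmid. If the order were the reverse, every direction given here would turn. All 3 arrays had the same dye orientation, so a dye effect that is specific to a gene and an effect of the construct cannot be told apart. One label text of replicate 1 names the other dye for its control channel than its label field does. Across 19087 named genes, that array correlated at 0.83 and 0.81 with replicates 2 and 3, which correlated at 0.82 with each other. Signal intensities were not used here, so a gene near background cannot be told apart from a well expressed one, and the number of arrays limits the precision.

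Gjb5 had the highest ratio of all named genes. Its log2 ratio was 3.87, 3.94 and 3.72 on arrays 1, 2 and 3, a mean of 3.84 ± 0.11 (SD, n = 3) or 14.3-fold, with an adjusted p of 0.00208 by limma. All 3 arrays were far from 0 and close to one another. The direction of Gjb5 was not a result, because the reading of the sign rested in part on this gene. The next highest gene was Olfr1168, an odorant receptor gene, at 2.27, 2.16 and 1.71, a mean of 2.05 ± 0.30. Kcp, a secreted modulator of bone morphogenetic protein signalling, followed at 2.12, 2.03 and 1.81, a mean of 1.98 ± 0.16. No array of any other named gene that passed the test reached the ratios of Gjb5. At the other end, Olfr1402, another odorant receptor gene, had ratios of -2.18, -2.12 and -1.93, a mean of -2.08 ± 0.13. Each of these genes was measured by 1 feature.

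The promoters of 4 genes are shown, because the question concerned a transcription factor and because full-length CCAT gave these genes ratios on the same side of 0 on all 6 arrays, against empty vector and against untransfected cells. They were chosen after the values had been seen. Each is the RefSeq sequence (build GRCm38.p6) of 300 bases around the gene's start, most of them before it, read 5′ to 3′ on the gene's strand. Capitals mark 3 motifs, found on either strand. The first is the TATA box, with the letters TATAAA. The second is the CCAAT box, with the letters CCAAT. The third is the GC box, with the letters GGGCGG. The Gjb5 window is chr4:127358115-127358414 on the minus strand, the Cdon window chr9:35451826-35452125 on the plus strand, the Artn window chr4:117929714-117930013 on the minus strand and the Kcnn3 window chr3:89519914-89520213 on the plus strand.
Gjb5: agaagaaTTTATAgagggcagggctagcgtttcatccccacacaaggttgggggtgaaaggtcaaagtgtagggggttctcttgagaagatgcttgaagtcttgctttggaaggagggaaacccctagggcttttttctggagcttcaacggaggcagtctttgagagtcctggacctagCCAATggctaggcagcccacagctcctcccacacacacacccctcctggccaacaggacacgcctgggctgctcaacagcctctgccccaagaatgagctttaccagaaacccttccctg
Cdon: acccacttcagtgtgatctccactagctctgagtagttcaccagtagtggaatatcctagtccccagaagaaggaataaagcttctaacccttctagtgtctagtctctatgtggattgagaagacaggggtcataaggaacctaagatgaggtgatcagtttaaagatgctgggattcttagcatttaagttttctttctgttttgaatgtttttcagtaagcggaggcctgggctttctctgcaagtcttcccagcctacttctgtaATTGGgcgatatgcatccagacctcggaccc
Artn: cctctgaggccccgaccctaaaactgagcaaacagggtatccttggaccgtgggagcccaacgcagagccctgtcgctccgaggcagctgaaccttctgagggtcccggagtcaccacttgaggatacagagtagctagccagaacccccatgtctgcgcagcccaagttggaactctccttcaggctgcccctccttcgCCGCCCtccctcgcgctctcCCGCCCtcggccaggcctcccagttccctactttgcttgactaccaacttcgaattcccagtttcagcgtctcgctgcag
Kcnn3: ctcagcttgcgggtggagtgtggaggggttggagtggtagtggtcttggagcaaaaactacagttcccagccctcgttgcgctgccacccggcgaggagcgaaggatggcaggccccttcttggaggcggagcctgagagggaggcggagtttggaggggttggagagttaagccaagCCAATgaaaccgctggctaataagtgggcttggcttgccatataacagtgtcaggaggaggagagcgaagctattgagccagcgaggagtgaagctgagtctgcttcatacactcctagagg

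Gjb5 had a TATA box match on the reverse strand near the 5′ end of its window and a CCAAT box. Cdon and Kcnn3 had 1 CCAAT box each, and Artn had 2 GC boxes. The GC content of these windows was 54.3% for Gjb5, 44.7% for Cdon, 61.3% for Artn and 57.7% for Kcnn3. Over the promoters of 12658 measured genes, the median GC content was 57.3%, and TATA, CCAAT and GC boxes occurred in 12.8%, 39.3% and 50.4% of windows. Each of these boxes thus occurs in many promoters of this length. A match here says only that the letters are present, and no factor binding was measured.

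The ratios were small for most genes. At an adjusted p under 0.05 (limma, Benjamini-Hochberg over all named genes), 12107 genes or 63.4% passed, 5837 higher (30.6%) and 6270 lower (32.8%). Their median absolute log2 ratio was 0.20, and the median SD of a gene between arrays was 0.04. With a change of at least 1.5-fold as well, 407 genes passed (2.13%), 88 higher (0.461%) and 319 lower (1.67%). At 2-fold these were 50 genes (0.262%), 15 higher (0.0786%) and 35 lower (0.183%). Lower genes therefore outnumbered higher ones past both folds. When limma tested against a minimum change of 1.5-fold rather than against 0, 2 genes passed, Gjb5 and Aspdh.

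**Figure D1:**
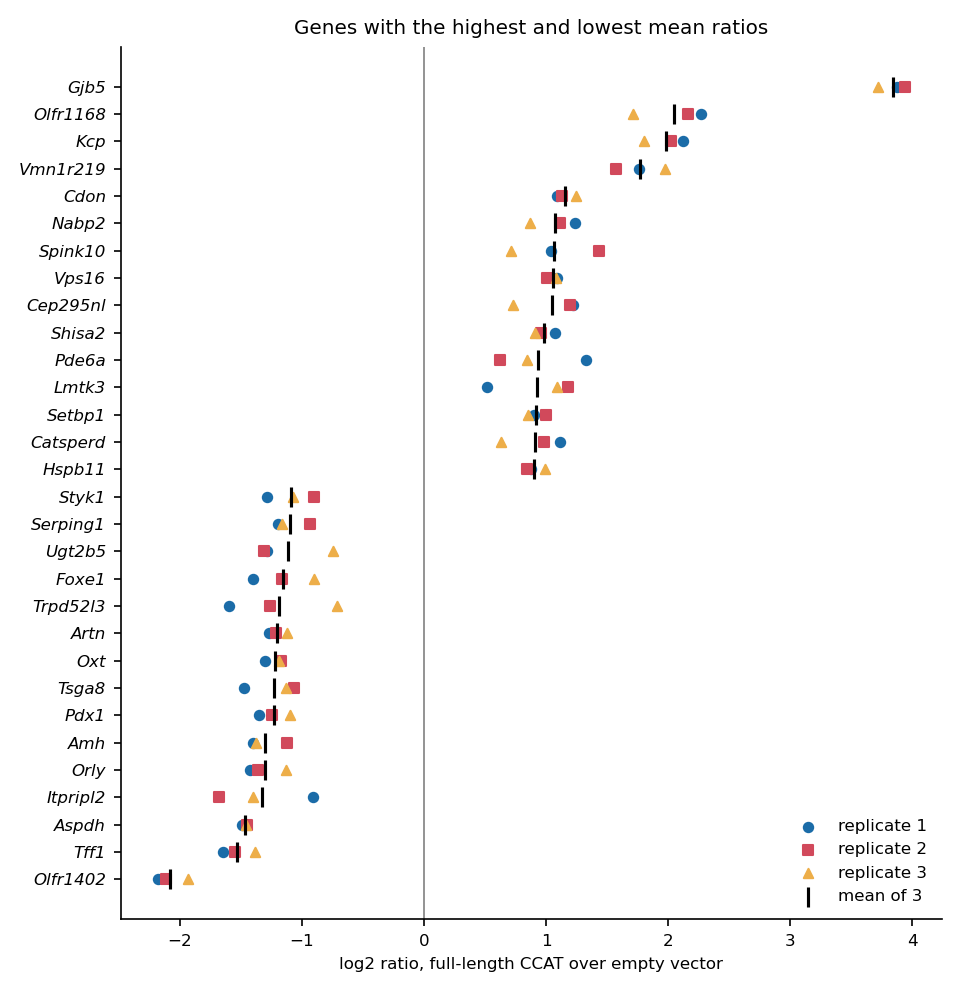
Log2 ratio of full-length CCAT over empty vector (x axis) on each of the 3 arrays (points) for the 15 highest and 15 lowest genes past an adjusted p of 0.05, with the mean as a black bar. Gjb5, with a mean of 3.84, stands apart from the next genes at 2.05 and 1.98, and the lowest gene, Olfr1402, lies at -2.08.

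Among the other genes with high ratios, those known for cell surface and signalling roles included Cdon, a cell surface co-receptor for Hedgehog proteins, with 1.09, 1.13 and 1.25, a mean of 1.15 ± 0.08. Shisa2, a membrane protein that holds back Wnt and FGF receptors in the endoplasmic reticulum, had 1.08, 0.96 and 0.91, a mean of 0.98 ± 0.09. Their 3 arrays lay close together. Vmn1r219, a pheromone receptor gene, had 1.76, 1.57 and 1.97, a mean of 1.77 ± 0.20. Nabp2, a single-stranded DNA binding protein of DNA repair, had 1.24, 1.11 and 0.87, a mean of 1.07 ± 0.19. Hspb11, a component of the transport machinery of cilia, had a mean of 0.90 ± 0.08. Catsperd, a subunit of the sperm calcium channel, had 1.11, 0.98 and 0.63, so that its highest array lay well above its lowest. Spink10, of the Kazal protease inhibitor family, had 1.04, 1.43 and 0.71, and without replicate 1 it missed the threshold (adjusted p = 0.0559, limma). Pde6a, a rod photoreceptor phosphodiesterase subunit, had 1.33, 0.62 and 0.84 and missed it without replicate 3 (0.0545). Lmtk3, a kinase, had 0.52, 1.18 and 1.09 and missed it without replicate 2 (0.0592) or replicate 3 (0.0615).

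Genes with 2 features could differ within themselves. Vps16, a subunit of the complexes that tether vesicles to lysosomes, had a mean of 1.06 ± 0.04 over arrays, but its features gave 0.33 and 1.78. Setbp1, which binds the nuclear protein SET, had a mean of 0.92 ± 0.07 from features at 0.41 and 1.42. In both genes the features differed by far more than the arrays did.

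The lowest ratios included several secreted factors and developmental regulators. Tff1, a trefoil peptide of the stomach lining, had -1.65, -1.55 and -1.39, a mean of -1.53 ± 0.13. Amh, the anti-Müllerian hormone of the TGF-beta family, had -1.40, -1.12 and -1.38, a mean of -1.30 ± 0.15. All arrays of both genes were at or beyond a 2-fold decrease. Oxt, the oxytocin precursor, had -1.31, -1.17 and -1.19, a mean of -1.22 ± 0.07. Artn, artemin, a ligand of the GDNF family that acts on sympathetic and sensory neurons, had -1.27, -1.21 and -1.12, a mean of -1.20 ± 0.07, or 2.3-fold lower. Serping1, the C1 inhibitor of the complement system, had -1.20, -0.93 and -1.17, a mean of -1.10 ± 0.15. The spread of each of these genes was small beside its mean.

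Pdx1, a homeobox factor of pancreas development, had -1.35, -1.24 and -1.10, a mean of -1.23 ± 0.13. Foxe1, a forkhead factor of thyroid development, had -1.40, -1.16 and -0.90, a mean of -1.15 ± 0.25. Both were lower on all 3 arrays. Aspdh, named for an aspartate dehydrogenase domain, had -1.49, -1.45 and -1.46, a mean of -1.47 ± 0.02, which made it one of the most even of the strongly lower genes. Styk1, a receptor-like kinase, had a mean of -1.09 ± 0.19. Cldn7, a tight junction protein, had -1.04 ± 0.17. Myo1g, a myosin of blood cells, had -1.002 ± 0.08, and Gp1bb, a platelet glycoprotein subunit, had -1.01 ± 0.04. Slitrk1, a synaptic adhesion protein, had -1.40, -1.12 and -0.52 and missed the threshold without replicate 1 (adjusted p = 0.0638, limma) or replicate 2 (0.0879). Several of these genes are best known from stomach, pancreas, thyroid or blood, and whether Neuro2A cells express them was not tested.

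Gjb5 aside, connexins lay on both sides of 0, and the median of the family was near 0. Of 17 measured connexins and pannexins, 4 were higher (23.5%) and 8 lower (47.1%) past the test, against 30.6% and 32.8% of all genes. The median log2 ratio of the list was -0.09, against 0.00 over all genes. Gjb5 was the only member past both the test and 1.5-fold. Gjc1, a connexin of vascular and conduction tissue, was next among higher members with 0.29, 0.35 and 0.31. Gja4, found in vascular endothelium and oocytes, had -0.40, -0.36 and -0.22. Gjd2, the main connexin of electrical synapses between neurons, had -0.15, -0.20 and -0.27, and missed the threshold without replicate 2 (adjusted p = 0.0513, limma). Gja1, the most widely expressed connexin, had -1.39, -1.04 and 0.05, a mean of -0.79 that did not pass (adjusted p = 0.112). Its first 2 arrays were far from 0 and the third was not.

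CCAT derives from the channel gene Cacna1c, whose ratio was -0.06, -0.06 and -0.04, a mean of -0.05 from features at -0.08 and -0.03. Its adjusted p was 0.0419, and the call was lost without replicate 1 (0.144), replicate 2 (0.180) or replicate 3 (0.103). Where its features lie in the transcript was not determined here, so they do not check the transfection. Of 25 calcium channel subunit genes, 3 were higher (12%) and 11 lower (44%), against 30.6% and 32.8% of all genes. Their median was -0.09, and none passed 1.5-fold. Cacna1h, a T-type channel, had -0.58, -0.53 and -0.46. Cacna1a, the P/Q-type channel of presynaptic terminals, had -0.42, -0.39 and -0.35. Both were lower on every array by amounts well above the spread between arrays, though the features of Cacna1a gave -0.55 and -0.22. Cacna1s, the skeletal muscle L-type channel, had a mean of -0.33 ± 0.04 from features at -0.55 and -0.11. Cacnb1, its auxiliary subunit, had -0.29 ± 0.04.

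Calcium-activated potassium channels took both directions. Kcnn3, a small-conductance calcium-activated potassium channel that shapes the afterhyperpolarization, had -0.90, -0.91 and -0.83, a mean of -0.88 ± 0.04 or 1.84-fold lower. Kcnn4, the intermediate-conductance channel, had -0.69, -0.62 and -0.68, a mean of -0.66 ± 0.03. Their relative Kcnn2 was higher, at 0.33, 0.33 and 0.26, and its 11 features lay between 0.14 and 0.36. Kcnt1, a sodium-activated potassium channel, had -0.46 ± 0.04 from 3 features between -0.62 and -0.32. Kcnmb4, the neuronal auxiliary subunit of the BK channel, had 0.22 ± 0.02. Over the list of 11 genes, 2 were higher (18.2%) and 4 lower (36.4%), against 30.6% and 32.8% of all genes. Of the lower ones, 2 (18.2% of the list) were past 1.5-fold, against 1.67% of all genes. The list median was -0.05. Members of one channel family thus moved in opposite directions.

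The shares over all genes were 30.6% higher, 32.8% lower and 1.67% lower past 1.5-fold. Of 69 other potassium channel genes, 11 were higher (15.9%) and 24 lower (34.8%), with a median of -0.05 and 2 lower past 1.5-fold (2.9%). These 2 were Kcng2, a silent subunit that modifies other channels, at -0.82 ± 0.06, and Kcnk4, a mechanically and thermally sensitive leak channel, at -0.63 ± 0.05. Kcnq3, a subunit of the M-current of neurons, was higher at 0.35 ± 0.07. Of 14 sodium and HCN channel genes, 3 were higher (21.4%) and 5 lower (35.7%). The pacemaker channels Hcn4 and Hcn2 had -0.58 ± 0.09 and -0.53 ± 0.09. Of 22 TRP channel genes, 5 were higher (22.7%) and 8 lower (36.4%), with a median of 0.00. Trpv4, a channel that responds to cell swelling and warmth, had -1.004, -0.80 and -0.64, a mean of -0.82 ± 0.18. Mcoln3, a lysosomal cation channel, had -0.47 ± 0.07, whereas Mcoln2 of the same family was higher at 0.78, 0.53 and 1.17, a mean of 0.83. Trpm2, gated by ADP-ribose, was higher at 0.32 ± 0.05.

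Neurotransmitter receptors were more often lower than higher, where over all genes 30.6% were higher and 32.8% lower. Of 23 glutamate receptor genes, 4 were higher (17.4%) and 11 lower (47.8%), with a median of -0.09. Grin2d, an NMDA receptor subunit, had -0.993, -1.004 and -0.996, a mean of -0.997 ± 0.01 (2-fold lower), the only member past 1.5-fold. Its relative Grin2c had 0.30, 0.33 and 0.38, so these subunits took opposite directions. Of 22 GABA and glycine receptor genes, 2 were higher (9.09%) and 14 lower (63.6%), with a median of -0.17. Gabrb1 had -0.46, -0.46 and -0.45, and Gabra5, a subunit of extrasynaptic receptors in hippocampus, had -0.44, -0.36 and -0.42. Gabbr2, a subunit of the metabotropic GABA receptor, had a mean of -0.25 from features that ran from -0.76 to 0.55. Of 21 nicotinic and muscarinic receptor genes, 5 were higher (23.8%) and 11 lower (52.4%), with a median of -0.10. Chrm5, a muscarinic receptor, had -0.83, -0.80 and -0.80, and Chrna10, a nicotinic subunit of hair cells, had -0.53, -0.52 and -0.50. Chrna3, a subunit of the ganglionic receptor, was higher at 0.36, 0.34 and 0.36.

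These shares were set beside chemosensory receptors, gene families not known from this cell line. Of 905 odorant receptor genes, 98 were higher (10.8%) and 470 lower (51.9%), with a median log2 ratio of -0.10. Of 130 vomeronasal receptor genes, 13 were higher (10%) and 64 lower (49.2%), with a median of -0.09. Of 16 taste receptor genes, 3 were higher (18.8%) and 11 lower (68.8%), with a median of -0.17. The medians of the connexin, calcium channel and receptor lists, -0.09 to -0.17, thus lay in the range of the chemosensory families. Whether low signal took part in these medians was not tested. Past 1.5-fold, 3 odorant receptors (0.331%) were higher and 10 (1.1%) lower, against 0.461% and 1.67% of all genes.

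**Figure D2:**
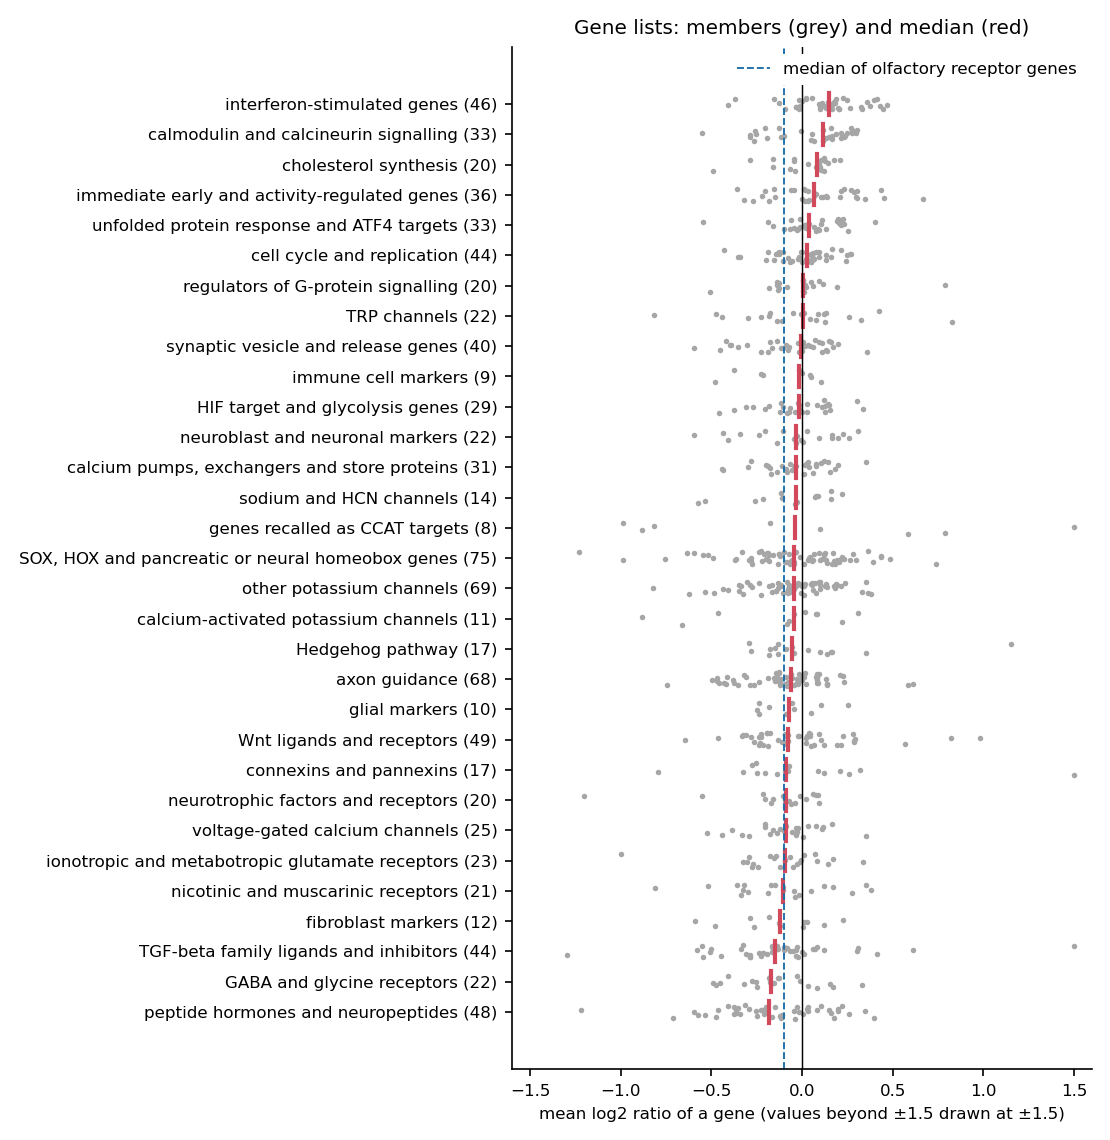
Log2 ratio of full-length CCAT over empty vector (x axis) for the members of each gene list (grey points, with the number of members in brackets and values beyond 1.5 in size drawn at that limit) and the median of each list (red). The median over odorant receptors, -0.10, is drawn as a dashed line for comparison, and list medians run from -0.18 for peptide hormones to 0.15 for interferon-induced genes.

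Genes for secreted neural and developmental signals had medians below 0, as did the chemosensory families. Of 48 neuropeptide and peptide hormone genes, 10 were higher and 27 lower, with a median of -0.18. Of these, 3 were lower past 1.5-fold (6.25%, against 1.67% of all genes). Besides Oxt, Npb, neuropeptide B, had -0.48 ± 0.03, and Cck, cholecystokinin, had -0.36 ± 0.01 from features at -0.47 and -0.24. Nmu, neuromedin U, was higher at 0.39 ± 0.04. Of 20 neurotrophic factor and receptor genes, 4 were higher and 10 lower. Nrtn, neurturin, the relative of artemin, had -0.59, -0.57 and -0.49. Ngfr, the low-affinity neurotrophin receptor, had -0.17 ± 0.02 from features at -0.26 and -0.08. Artn and Nrtn were named by their ratios or p-values, so they do not describe the GDNF family as a whole. Of 44 TGF-beta and BMP pathway genes, 4 were higher and 23 lower, with a median of -0.15. Beside Amh, the ligands Gdf11 and Bmp3 had -0.55 ± 0.09 and -0.54 ± 0.03, the latter from features at -0.69 and -0.40. Kcp and Ltbp4, which binds latent TGF-beta in the matrix (0.30 ± 0.02), were among the 4 higher. The shares lower were 56.2% for the peptide, 50% for the neurotrophic and 52.3% for the TGF-beta list. Over all genes 32.8% were lower, and among odorant receptors 51.9%. The shares higher were 20.8%, 20% and 9.09%, against 30.6% of all genes and 10.8% of odorant receptors.

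Of 17 Hedgehog pathway genes, 5 were higher and 5 lower. Cdon and the ligand Dhh were higher, the latter at 0.38, 0.32 and 0.35, while Boc, the co-receptor related to Cdon, had -0.20, -0.15 and -0.20. Of 49 Wnt pathway genes, 11 were higher and 18 lower. Axin2, a feedback inhibitor that is a common readout of Wnt signalling, was higher at 0.59, 0.56 and 0.56. Against untransfected cells it was lower with full length, at -0.40 ± 0.07. The ligands Wnt7b and Wnt2b were lower at -0.65 ± 0.07 and -0.46 ± 0.05. Of 75 SOX and homeobox genes, 18 were higher and 26 lower. Past 1.5-fold, 1 was higher (1.33%) and 5 lower (6.67%), against 0.461% and 1.67% of all genes. Sox3, a factor of neural progenitors, had -1.11, -0.99 and -0.88, a mean of -0.99 ± 0.11, and Sox1 and Sox12 had -0.52 ± 0.03 and -0.59 ± 0.04. Hoxc9 was higher at 0.49 ± 0.03. Sox5 had a mean of 0.44 ± 0.03, from 4 features that ran from 0.01 to 1.09. Of 68 axon guidance genes, 15 were higher and 24 lower. The ephrin ligand Efna2 had 0.69, 0.72 and 0.43, whereas Efna4 had -0.39, -0.37 and -0.38. The shares higher and lower were 29.4% and 29.4% for the Hedgehog, 22.4% and 36.7% for the Wnt, 24% and 34.7% for the homeobox and 22.1% and 35.3% for the axon guidance list, not far from the 30.6% and 32.8% over all genes.

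Some lists leaned upward. Of 33 calmodulin, calcineurin and CREB pathway genes, which couple calcium to transcription, 19 were higher and 10 lower, with a median of 0.12 and none past 1.5-fold. Crtc2, a CREB coactivator, had 0.26, 0.28 and 0.30, and Camkk2, a kinase that activates other calmodulin kinases, had 0.27, 0.25 and 0.23. The related coactivator Crtc1 had -0.50, -0.54 and -0.61, and the acetyltransferase Crebbp had -0.28 ± 0.02 from 3 features that ran from -0.60 to 0.14. Of 36 immediate early genes, 19 were higher and 8 lower, with a median of 0.07. Egr1, a zinc finger factor induced by activity and growth factors, had 0.67, 0.67 and 0.65, a mean of 0.67 ± 0.01, and was the only member past 1.5-fold. Ier5 and Zfp36, which promotes decay of mRNAs, had 0.45 ± 0.01 and 0.43 ± 0.05, and Myc had 0.35 ± 0.02 from 3 features between 0.04 and 0.59. The features of Zfp36 gave 0.20 and 0.67. Jund was lower at -0.27. The shares higher and lower were 57.6% and 30.3% for the calmodulin list, and 52.8% and 22.2% for the immediate early list. Over all genes they were 30.6% and 32.8%.

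Interferon-induced genes, which respond to foreign nucleic acid, had the highest list median. Of 46, 28 were higher and 3 lower (60.9% and 6.52%), with a median of 0.15 and none past 1.5-fold. Ifit1, which binds foreign RNA, had 0.51, 0.46 and 0.44, Mx2, an antiviral GTPase, had 0.35, 0.46 and 0.43, and Isg15, a ubiquitin-like modifier, had 0.27, 0.26 and 0.26. On the other platform, full-length CCAT against untransfected cells gave 3.78 ± 0.40 for Ifit1, 3.41 ± 0.06 for Mx2 and 4.27 ± 0.08 for Isg15. The truncated form gave 2.58 ± 0.16, 2.85 ± 0.19 and 3.63 ± 0.07 for these genes. The ratios against cells that had received PA1 were thus far smaller than those against untransfected cells, though the tables were normalized separately and the difference was not tested. Of 20 cholesterol synthesis genes, 11 were higher (55%) and 5 lower (25%), against 30.6% and 32.8% of all genes. Hmgcs1, an early enzyme of that route, had 0.21 ± 0.02 against PA1 and 1.79 ± 0.06 against untransfected cells.

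Of 33 unfolded protein response and ATF4 target genes, 14 were higher (42.4%) and 4 lower (12.1%), against 30.6% and 32.8% of all genes. The protein disulfide isomerases Pdia4 and Pdia3 had 0.40 ± 0.02 and 0.26 ± 0.01, and Asns, asparagine synthetase, had -0.53, -0.56 and -0.55. The next lists had shares nearer to those of all genes. Of 44 cell cycle genes, 15 were higher (34.1%) and 13 lower (29.5%), with E2f1, a factor that drives entry into S phase, at 0.27 ± 0.03 and Cdc20, an activator of the anaphase-promoting complex, at -0.43 ± 0.02. Of 29 hypoxia and glycolysis genes, 9 were higher (31%) and 11 lower (37.9%). Adm, adrenomedullin, had 0.33 ± 0.01 and Aldoa, a glycolytic aldolase, -0.37 ± 0.04 from features at -0.53 and -0.21. Of 31 calcium pump, exchanger and store genes, 9 were higher (29%) and 11 lower (35.5%). The pumps Atp2a3 and Atp2a1 had -0.43 ± 0.05 and -0.44 ± 0.12, and the store-operated channel Orai2 had 0.35 ± 0.06. Of 20 RGS genes, which switch off G protein signals, 4 were higher (20%) and 5 lower (25%). Rgs5 had 0.98, 0.74 and 0.65, but its features gave -0.03 and 1.61.

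Markers of the cells themselves were called about as often as all genes, of which 30.6% were higher and 32.8% lower. Of 22 neuroblast and neuronal markers, 7 were higher (31.8%) and 8 lower (36.4%), with a median of -0.03. Th and Ddc, enzymes of catecholamine synthesis, had -0.41 ± 0.06 and -0.44 ± 0.01, the latter from features at -0.53 and -0.34. Syn1, a synaptic vesicle protein, had -0.61, -0.59 and -0.59 from features at -0.98 and -0.22. Hand2 and Gap43, a transcription factor and a growth cone protein of sympathetic neurons, were higher at 0.31 ± 0.03 and 0.23 ± 0.02. Of 40 synaptic genes, 9 were higher (22.5%) and 15 lower (37.5%). None of 10 glial, 12 fibroblast or 9 immune markers was higher past the test, against 30.6% of all genes. Lower were 3 (30%), 5 (41.7%) and 3 (33.3%) of them, against 32.8% of all genes. These were lower by at most 0.59 in size (Tagln, an actin-binding protein, -0.53, -0.63 and -0.62). The call of the glial marker Mbp, a myelin protein at -0.09 with features from -0.65 to 0.22, was not stable. It turned to 0.16 with the median over features (adjusted p = 0.00537, limma) and was lost without any 1 replicate (0.0623 to 0.0778). The part of these markers in the other results was not tested. Ratios do not show whether a marker is expressed, so the cell type could not be checked against levels.

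Of 8 CCAT targets recalled from the literature, 3 were higher (37.5%) and 4 lower (50%) past the test, against 30.6% and 32.8% of all genes. Past 1.5-fold there were 2 (25%) and 3 (37.5%), against 0.461% and 1.67% of all genes. Targets past the test included Gjb5 and Rgs5 among higher and Kcnn3, Trpv4, Sox3 and the sodium-calcium exchanger Slc8a1 among lower members. This list is not independent evidence, since the study is known to have chosen its targets on such samples. Slc8a1 had -0.24, -0.16 and -0.14, but its 8 features ran from -0.75 to 0.03, and with their median in place of the mean it had -0.06 and did not pass (adjusted p = 0.116, limma).

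Genes with several features gave a check within arrays. Among 8266 such genes, 45 passed 1.5-fold, and in 39 of these all features lay on one side of 0. Of the 407 genes past 1.5-fold, 362 (88.9%) had a single feature, against 56.7% of all genes, and of the 50 past 2-fold, 49 had a single feature. Features that share an accession differed by a median range of 0.21 on the log2 scale, and the median SD between arrays was 0.04. The agreement of arrays therefore does not cover the difference between features. All features exceeded 1.5-fold in 1 higher and 5 lower genes. The higher gene, the RNA helicase Ddx23, had a mean of 0.85 ± 0.58 and did not pass the test (adjusted p = 0.0540, limma). The lower ones were Dlgap2, Gpr152, Loxl4, Rps4x and the clone C030005K06Rik, and all 5 passed it.

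Genes whose features all lay on one side of 0 on every array were ranked by the feature nearest to 0, which places genes such as Vps16 and Setbp1, with 1 weak feature each, below genes with a smaller mean. By this rank the first on the higher side were Myh3, an embryonic skeletal myosin, with features at 0.55 and 0.57, and Tpm2, a muscle tropomyosin, with features at 0.53 and 0.59. Spry4, an inhibitor of receptor tyrosine kinase signalling, had features at 0.49 and 0.68, and Rsf1, a chromatin remodelling factor, had 3 features between 0.46 and 0.47. Lats1, a kinase of the Hippo pathway, had a mean of 0.49 ± 0.04 over arrays. The first on the lower side were Dlgap2, a postsynaptic scaffold protein, with features at -0.77 and -0.71, and Gpr152, an orphan receptor, with features at -0.78 and -0.70. Slc6a13, a GABA transporter, had features at -0.87 and -0.57, and Hcn4 had features at -0.62 and -0.53. Loxl4, a lysyl oxidase of the matrix, had array values of -0.92, -0.67 and -0.47 and missed the threshold without replicate 2 (adjusted p = 0.0511, limma). Feature by feature, these genes changed less than the top genes with a single feature.

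**Figure D3:**
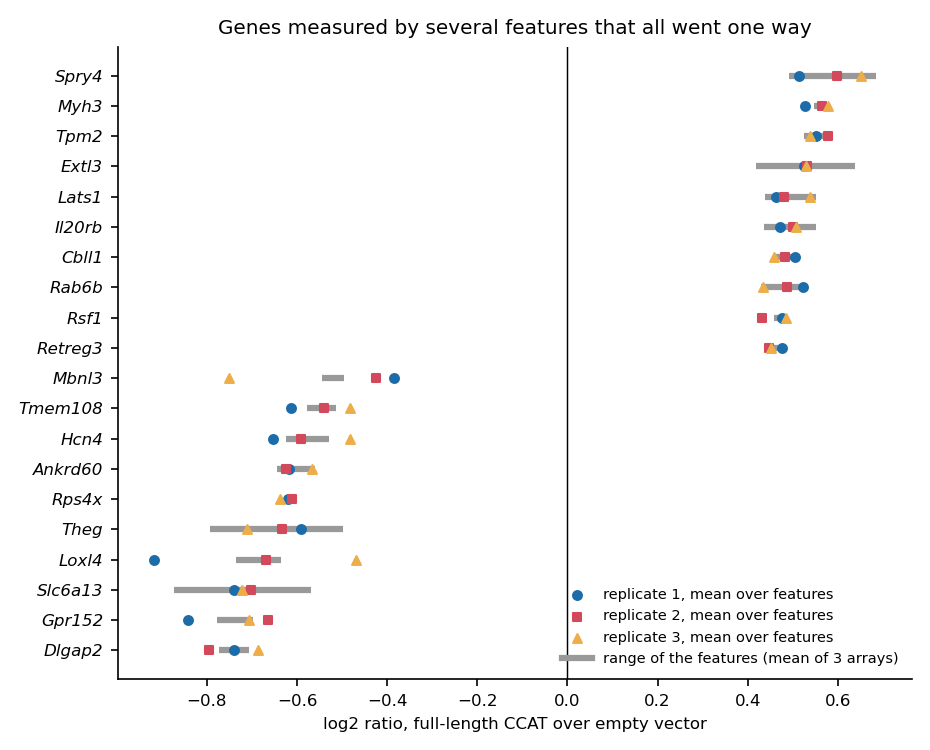
Log2 ratio of full-length CCAT over empty vector (x axis) for the 10 higher and 10 lower genes past the test whose features all lay on one side of 0 on every array and whose feature nearest to 0 was farthest from it, with the mean over features on each array (coloured points) and the range of the features' means over 3 arrays (grey bars). Features of Myh3 lie at 0.55 and 0.57 and those of Dlgap2 at -0.77 and -0.71.

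One value recurred on each array. A log2 ratio of -0.60, -0.62 and -0.62 on arrays 1, 2 and 3 was shared by 64, 59 and 53 features, where the density nearby would give 12.1, 9.8 and 8.9. On all 3 arrays 41 features of 27 genes lay on it, of which 17 genes code for ribosomal proteins. The rest included abundant transcripts such as Eef1a1, an elongation factor, Tuba1a, a tubulin, and Atp5b, a subunit of the mitochondrial ATP synthase. Rps4x, at -0.62, -0.61 and -0.64, is one of them. Of the 319 genes lower past 1.5-fold, 13 lay on this value, and without the genes on it 306 remained.

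Genes on both platforms, 16328 in number, could be set side by side with the comparisons against untransfected cells. The control differs and the tables were normalized separately, so no difference was tested. Gjb5 had 3.28, 3.74 and 2.52 with full-length CCAT against untransfected cells, a mean of 3.18 ± 0.62, and 0.29, 0.37 and 0.28 with the truncated form. Values far from 0 thus appeared on all 6 full-length arrays and on none of the 3 truncated ones. Their direction was not a result, since the reading of positive ratios rested in part on Gjb5. Cdon had 1.36, 1.37 and 0.32 with full length and 1.05, 0.29 and 1.27 with the truncated form, so both groups spanned a wide range. Vmn1r219 had 1.67, 1.54 and exactly 0 with full length and 3.47, 3.87 and 4.32 with the truncated form, and Nabp2 had means of 0.65 ± 0.13 and 3.18 ± 0.15. For both genes every truncated array was above every full-length array. Shisa2, by contrast, had 0.15 ± 0.04 and 0.01 ± 0.07 on that platform. Some genes that were higher against empty vector were lower there with full length. Axin2 had -0.32, -0.43 and -0.44, and Catsperd had -0.22 ± 0.03.

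Among lower genes, Artn had -1.53 ± 0.11 with full length and -1.39 ± 0.08 with the truncated form against untransfected cells. Amh had -1.14 ± 0.13 and -1.08 ± 0.20, Kcnn3 -0.98 ± 0.06 and -0.91 ± 0.02, and Sox3 -1.18 ± 0.35 and -1.19 ± 0.07. For each of these genes the arrays of both forms overlapped. Grin2d had -1.32, -1.45 and -1.49 with full length and -0.46, -0.42 and -0.51 with the truncated form, and these groups of arrays did not overlap. Tff1, Pdx1 and Olfr1402 were near 0 there, with full-length means of -0.15, -0.25 and -0.25. Gdf11, lower against empty vector, was higher there with full length, at 0.43 ± 0.14. Egr1 had 0.86 ± 0.06 with full length and 0.47 ± 0.03 with the truncated form, and Syn1 had 0.00 ± 0.11 and -0.01 ± 0.08.

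Of the 88 genes higher past 1.5-fold, 50 were on the other platform, and 11 of these (22%) had a mean of at least 1.5-fold with all 3 arrays in that direction for full length against untransfected cells, where 5.2% of all genes did. For the truncated form it was 8 (16%), against 6.83%. Of the 319 lower genes, 245 were there, with 82 (33.5%) for full length against 3.3% of all genes, and 58 (23.7%) for the truncated form against 3.9%. Whatever the size, 29 of the 50 higher and 192 of the 245 lower genes kept their direction on all 3 full-length arrays there. Across the 16328 genes, which are not independent replicates, the ratio against empty vector correlated at 0.43 with that of full length and at 0.30 with that of the truncated form against untransfected cells.

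**Figure D4:**
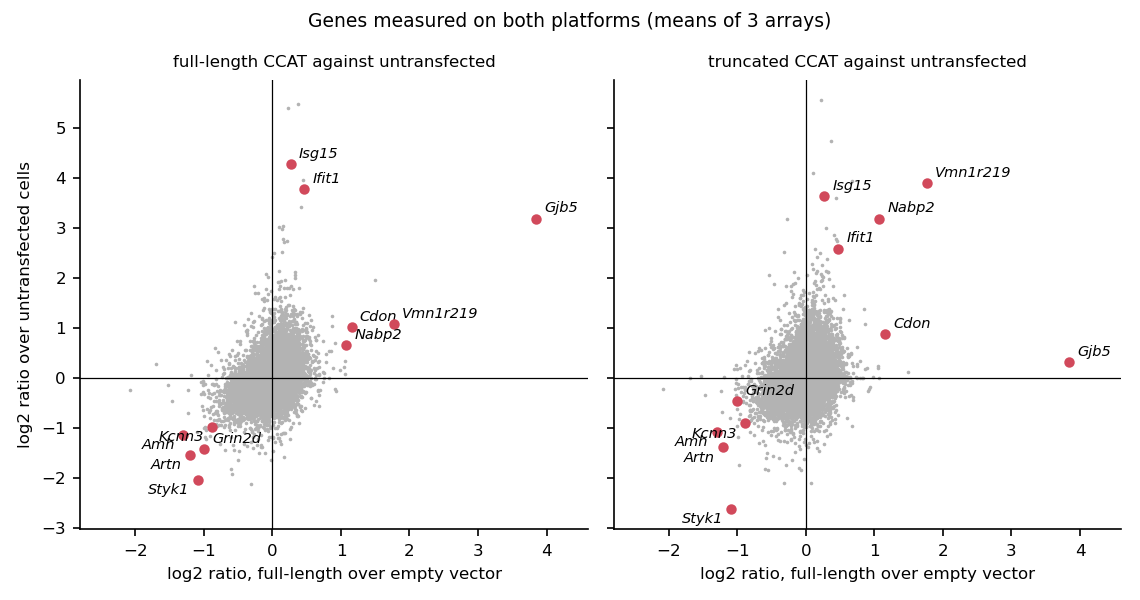
Log2 ratio of full-length CCAT over empty vector (x axis of both panels) against the log2 ratio over untransfected cells for full-length CCAT (left) and truncated CCAT (right), means of 3 arrays, 1 point per gene on both platforms. Gjb5 lies at 3.18 for the full-length form and at 0.31 for the truncated form, and Artn at -1.53 and -1.39.

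Promoters of changed genes were also described as a set. The windows of 60 genes higher and 208 genes lower past 1.5-fold had a median GC content of 54.5% and 54.7%, against 57.3% for all 12658 genes, and a median of 8.5 and 6 CpG dinucleotides, against 15. A GC box (GGGCGG) occurred in 41.7% of the higher, 37% of the lower and 50.4% of all windows, and a TATA box in 8.33%, 18.3% and 12.8%. The cAMP response element TGACGTCA, the site of CREB, occurred in none of the 60 higher windows, in 1.44% of the lower and in 2.47% of all. The AP-1 motif TGANTCA, site of Fos and Jun, occurred in 13.3%, 7.69% and 6.81%, and the E-box CACGTG in 11.7%, 7.21% and 8.42%. Among the higher windows these were 8 and 7 windows, and the response element lay in 3 lower windows. The counts are small, and no difference in motifs was tested. All motifs were searched on both strands. The lower genes differed from all promoters most in their CpG count. From the fifth of genes with the lowest promoter GC content to that with the highest, the median log2 ratio of all genes was -0.08, -0.03, 0.00, 0.03 and 0.04. GC content thus moved with the ratio across genes, at a Pearson correlation of 0.15 over 12658 genes that share the same arrays, and its part in the results was not tested.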

How the data were processed

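The authors deposited log10 ratios of the Cy3 channel (full-length CCAT) and the Cy5 channel (empty vector), for which the design text names the Rosetta Luminator system. How background and dyes were corrected, and which channel was the numerator, is not given in the sources used here. Base 10 was inferred from the values, and log2 ratios were computed from it. Of 43790 features, 32042 had 1 gene symbol in the platform annotation, 47 had several and 11701 had none, and only the first were used for genes. Features of a gene were averaged. Medians of the arrays lay at -0.0011, -0.0016 and -0.0012 on the log10 scale, and 724 to 747 features per array were exactly 0.

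The test was limma 3.58.1, run in R 4.3.3 as an intercept-only fit with eBayes (3 arrays against 0, two-sided, 2 residual degrees of freedom), with Benjamini-Hochberg adjustment over 19087 genes and a threshold of 0.05. No p-value was computed over a list. List counts use the same calls, and list members not past the test are not counted in either direction. The script was tested on simulated data. The members and lists were chosen with earlier results of these data known. Genes were named by a rule: Gjb5 and Cacna1c, the 15 highest and 15 lowest genes past the test with all arrays in one direction, 10 higher and 10 lower genes with several features, all in one direction on every array, ranked by the feature nearest to 0, up to 6 members per list by smallest p, and genes past 2-fold, without symbols of clones, gene models or pseudogenes. Gja1, Mcoln2, Ddx23 and C030005K06Rik are named outside it, after their values were seen. Promoter sequences came from a RefSeq table of build GRCm38.p6, which held exactly 1 promoter for 12658 of the genes. Figures were drawn with matplotlib 3.10.9.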

Additional observations from a re-analysis of the deposited data

How the results depend on the processing

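No paired analysis was possible because the comparison is of 1 group of ratios against 0, in which replicate numbers have no partner. The count of genes past an adjusted p of 0.05 (limma), 12107, fell to 7629 when genes whose largest absolute log2 ratio was under 0.2 were left out (by construction fewer genes tested), to 2 with a minimum change of 1.5-fold tested, and to between 8400 and 9788 without 1 replicate, and came to 20530 over single features. The counts past 1.5-fold and 2-fold, 407 and 50, came to 951 and 119 over single features, and to 371 to 438 and 43 to 58 without 1 replicate. Centring, quantile normalization, a median in place of the mean of features, setting ratios of 0 missing, robust eBayes, no moderation (for the first count) and leaving out genes on the shared value, an alternative added after the data had been seen, kept these counts within 1.5 times. Gjb5 stayed past the threshold under every alternative run, at 3.79 to 3.90 without 1 replicate. Of 2256 combinations of 228 named genes and settings, 2207 kept direction and call, 48 lost the call and 1 reversed: Mbp, a myelin protein, had -0.09 as a mean and 0.16 as the median over its features, and the cause was not tested. Treating shared lowest or highest values as missing gave no value, since no array had one shared by several features. Signal over background was not used here, so the ratios of dim and bright features have the same weight.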

Other observations

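Features without a gene symbol held high ratios that no gene of the report covers. The highest had log2 ratios of 3.67, 3.80 and 3.48 on arrays 1, 2 and 3, a mean of 3.65, close to that of Gjb5. The next had 2.69, 2.79 and 2.55, and the third 2.06, 2.14 and 2.05. Of 11701 such features, 42 were at least 2-fold higher on all 3 arrays and 943 at least 2-fold lower, against 60 and 69 of the 32042 features with 1 symbol. What these features measure was not determined here.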
